A study of Mus musculus with 8 samples.

Results

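The response of Cullin 3 knockout macrophages to 6 h of lipopolysaccharide (LPS) was measured as the difference between the knockout (KO) samples given LPS and the untreated KO samples, which are 4 of the 8 samples of the study. They were chosen by their titles, 2 arrays in each group. The other 4 arrays are the same design in wildtype (WT) cells and are used only where the KO response is set against the WT response. All samples were bone marrow-derived macrophages of female mice aged 6 to 8 weeks, grown for 6 days with medium conditioned by L929 cells, a fibroblast line that secretes the macrophage growth factor M-CSF. The KO cells are labelled Cullin 3 knockout with no allele, Cre driver or strain, the WT cells carry no other label, and the LPS dose is not given. The labels do not say whether replicates are separate mice or cultures, and the spread behind each p-value may therefore be no more than technical. Each sample was hybridised to a 1-colour Agilent array, and the number of arrays limits the precision.

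LPS, a component of the outer membrane of Gram-negative bacteria, is bound by CD14 and sensed by TLR4 with its partner MD-2. TLR4 signals through the adaptor MyD88 to NF-kappaB and AP-1, which drive cytokine and chemokine genes, and through the adaptor TRIF to IRF3, which drives interferon beta and, by way of its receptor, the interferon-stimulated genes. Cullin 3 is the scaffold of ubiquitin ligases that take their substrates through BTB-domain adaptors, the best known being KEAP1, which marks the transcription factor NRF2 for degradation.

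A level below is log2 of the processed signal minus the array's own 75th percentile, so that 0 is the 75th percentile of the array, and a change is the LPS mean minus the untreated mean of these levels. Levels are compared within a gene only. A gene was called when limma's adjusted p was under 0.05, and "rose" and "fell" are used only of called genes. Cul3, the targeted gene, was read by a 60-base probe on chromosome 1 (chr1:80268109-80268168 on mm9). Its level was 1.38 and 1.28 on the untreated KO arrays and 1.90 and 1.77 on the KO arrays with LPS. In WT cells it was 1.77 and 1.79 untreated and 2.39 and 2.42 with LPS. The KO arrays lay below the WT arrays of the same treatment, by a log2 difference of -0.45 ± 0.12 (SE, n = 2 arrays a group, limma adjusted p = 0.112) untreated and -0.58 ± 0.12 (adjusted p = 0.0273) with LPS. The labels do not say which exons were deleted, so this probe may lie outside the deleted part and does not test the deletion. Cul3 rose with LPS in KO cells by 0.51 ± 0.12 (adjusted p = 0.0152) and in WT cells by 0.63. The KO call was lost without KO untreated replicate 1 (0.55, adjusted p = 0.0642), without KO untreated replicate 2 (0.46, adjusted p = 0.109) and without KO LPS replicate 1 (0.44, adjusted p = 0.0825), and the change was -0.11 in the deposited values, which carry no scaling between arrays.

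The arrays of a group correlated at 0.992 to 0.995 over genes, and the first principal component, with 80.6% of the variance, separated the LPS arrays from the untreated arrays in both genotypes. Between 67.8% and 73.7% of spots were well above background on the KO arrays. The 75th percentile signal was 1557 and 1269 on the untreated KO arrays and 960 and 949 on those with LPS, whereas spike-in probes lay 1.16 to 1.28 log2 units above that percentile on all 4. KO LPS replicate 2 had 974 spots with an outlier flag against 180 to 325 on the other 7 arrays, which leaves genes with a missing value there. With it as the only KO LPS array, 27678 genes had a KO change, against 27954 with both. Untreated and LPS arrays lay in different columns of the slide, so that slide column and LPS cannot be told apart. The macrophage markers were present: Csf1r, the M-CSF receptor, was at a mean of 8.27 untreated and 8.57 with LPS, Adgre1 (F4/80) at 7.25 and 7.67, and neither was called. Of 14 neutrophil markers 6 rose and 4 fell, and their summed level went from 6.92 and 6.90 to 7.92 and 7.76. The dendritic cell list went from 6.96 and 7.17 to 7.57 and 7.42 with 4 of 9 measured markers called higher and 1 lower. Most of its sum was Siglech (mean 7.04 untreated and 7.36 with LPS), which was not called. The osteoclast list went from 4.54 and 4.60 to 6.90 and 6.68 with 4 of 7 called higher and 2 lower. Most of its sum was Acp5 (mean 4.15 untreated and 6.74 with LPS). The stromal and endothelial list went from 1.94 and 2.03 to 4.21 and 4.21 with 5 of 10 higher (3 with quantile normalization or median centring) and 1 lower. Beside these counts, 25.3% of all genes rose and 21.7% fell. The part of these cell types in the results below was not tested. In bulk RNA a change in the share of cells of a type and a change in the RNA per cell cannot be told apart. The T and NK cell list stood at 6.39 on KO untreated replicate 1 and between 3.14 and 3.54 on the other 3 KO arrays. That gap came with Cd8a, at 6.20 on that array and between -6.35 and -6.31 on the other 3.

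LPS changed the level of 13144 of 27954 genes measured in both KO groups, which is 47% of them. Of these, 7075 rose (25.3%) and 6069 fell (21.7%), by a median of 1.17 and -1.23. A change of at least 1 log2 unit was seen in 4220 genes that rose (15.1%) and 3828 that fell (13.7%). Larger changes were more often rises: 1881 genes rose and 1332 fell by at least 2 units, 556 and 143 by at least 4, and 45 and 3 by at least 8. The levels of the KO groups did not overlap in 21769 genes (77.9%), so with 2 arrays a group absence of overlap alone says little. The median change of all genes was 0.13 with the 75th percentile as reference, -0.09 with median centring, -0.06 with quantile normalization, 0.14 with spike-in scaling, 0.31 with normexp background correction and -0.48 in the unscaled deposited values. The split of calls moved with it, from 53.8% higher in the main setting to 43.8% (5908 higher and 7588 lower) with quantile normalization, 41.3% (5282 and 7500) with median centring, 68.3% (12299 and 5717) with normexp and 22.4% (2109 and 7291, of 15038 genes) in the unscaled deposited values. Small changes are therefore read against that shift, and most changes named below are far larger than it.

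The 12 largest rises included genes for cytokines, a chemokine, enzymes and a receptor. Genes were ranked by their change, or by the bound described below where neither array of the dimmer group measured the gene, passing over predicted genes without a given name. Il19, a cytokine of the IL-10 family, was at -4.75 and -5.63 on the untreated KO arrays and 6.84 and 6.65 on those with LPS, a change of 11.94 ± 0.45. Cxcl3, a neutrophil-attracting chemokine, went from -5.48 and -6.20 to 6.15 and 5.78, a change of 11.81 ± 0.29 or 3581-fold. In both genes the lowest LPS array lay over 11 log2 units above the highest untreated one. Il1a, which encodes interleukin 1 alpha, changed by 10.99 ± 0.24 and Il6 by 10.91 ± 0.78, the wider error of Il6 going with untreated levels of -1.94 and -3.61. Il12b, the p40 chain of interleukins 12 and 23, rose by 10.70 ± 0.44, Ptgs2 (cyclooxygenase 2) by 10.09 ± 0.32 and Hdc, the enzyme that makes histamine, by 9.57 ± 0.23. Serpinb2, an inhibitor of plasminogen activators, rose by 10.94 ± 0.28, and Slamf1, a SLAM family receptor, by 10.74 ± 0.25 with only 1 untreated KO array well above background. For 3 of the 12, no untreated KO array was well above background and the change is a bound: Shisa3 was at least 2982-fold higher with LPS, Il1f6 (interleukin 36 alpha) at least 1364-fold and Ptx3, a soluble pattern recognition protein, at least 865-fold. A bound sets the mean of the bright group against the higher of the dim probe's own signal and the lowest signal that counts as well above background on that array.

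The largest falls were smaller in size than the largest rises and spread over other functions. Rasgrp3, a nucleotide exchange factor for Ras and Rap, was at 2.91 and 3.10 on the untreated KO arrays and at -6.11 and -6.05 with LPS, a change of -9.08 ± 0.30. Arhgap19, a GTPase-activating protein, was at 1.19 and 1.95 untreated and not well above background on either LPS array, at least 251-fold lower. The other of the 3 genes that fell by at least 8 units is a predicted gene that the ranking passed over. In that ranking these were followed by Zfp704 (-6.69 ± 0.24), Slco2b1, an organic anion transporter (-6.44 ± 0.27, with 1 LPS array well above background), the acyl-CoA thioesterase Acot1 (-6.35 ± 0.21) and the stress-response gene Sesn1 (-6.35 ± 0.14). Sesn1 was at 5.66 and 5.60 untreated and at -0.65 and -0.79 with LPS. Nfatc2, a calcium-regulated transcription factor, fell by 5.89 ± 0.16, the cell cycle factor E2f2 by 5.69 ± 0.14, the neutral sphingomyelinase Smpd3 by 5.66 ± 0.23, Susd3 by 5.65 ± 0.15, Tmem37 by 5.59 ± 0.19 and Engase, a deglycosylating enzyme, by 5.58 ± 0.34. Tmem37 was a bright probe before LPS (6.98 and 7.16) and stayed well above background with it (1.58 and 1.38). Where one of these falls had another kept probe, it changed by -5.74 (Arhgap19), -3.66 (Zfp704), -7.94 (Slco2b1), -3.20 (Nfatc2) and -5.83 (Engase). For these 24 genes the limma adjusted p was between 2.50e-06 and 0.000335.

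**Figure D1:**
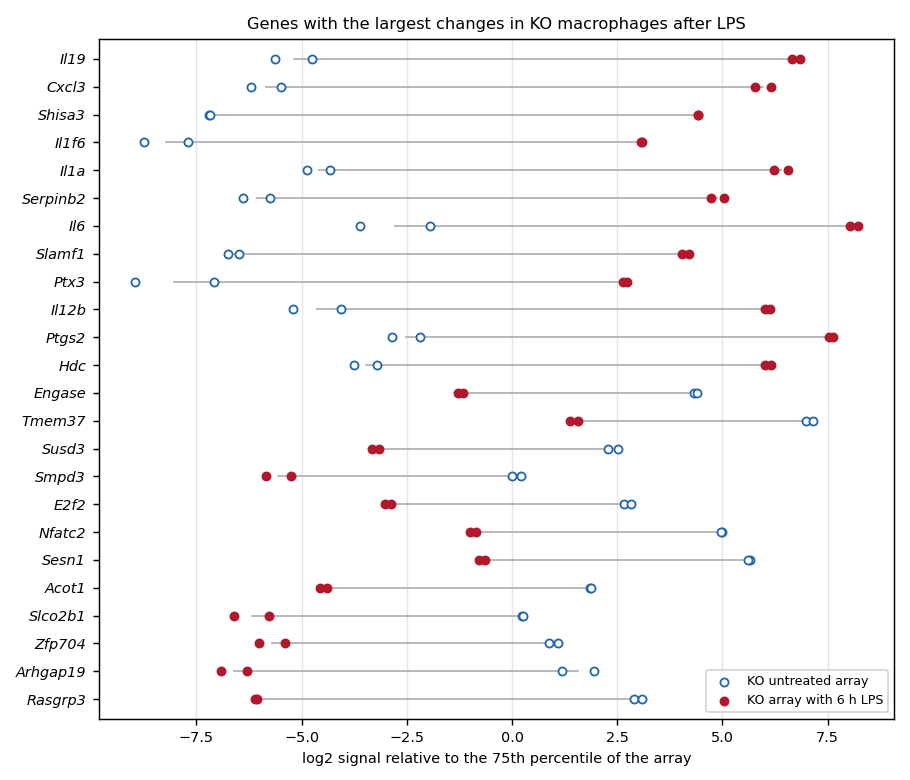
Level (log2 signal relative to the array's 75th percentile, horizontal axis) of the 12 genes with the largest rises and the 12 with the largest falls on each KO array; open circles are the 2 untreated arrays, filled circles the 2 arrays with 6 h LPS, and grey lines join the group means. Untreated and LPS arrays stand apart in every gene; values of the dim groups of Shisa3, Il1f6, Ptx3 and Arhgap19 are drawn as measured although they were not well above background.

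The receptor side changed in both directions. Of 17 genes of the TLR4 receptor complex and its adaptors, 10 rose and 4 fell, beside 25.3% and 21.7% of all genes. The median change was 1.04 against 0.13 over all genes. Cd14 was at 6.45 and 6.37 untreated and 8.54 and 8.67 with LPS, a rise of 2.20 ± 0.16. Myd88 went from 4.83 and 4.79 to 6.85 and 6.78 (2.01 ± 0.12), and Ikbke, a kinase upstream of IRF3, rose by 1.92. Tlr4 itself fell, from 3.60 and 3.56 to 2.45 and 2.30 (-1.21 ± 0.13), as did Irak1 (-1.21 ± 0.13), a kinase recruited by MyD88, and Cd180, a TLR4 homologue (-0.96 ± 0.15). Of 14 NF-kappaB subunits and inhibitors 13 rose and none fell, with a median of 1.96: the precursor subunit Nfkb2 rose by 3.59, and the inhibitors Nfkbie and Nfkbib by 3.35 and 2.85. Among 19 AP-1, ATF, EGR and immediate early factors 14 rose and 3 fell. Batf (4.90), Maff (4.61) and the survival gene Ier3 (4.45) rose most, and the 3 that fell at this time were Fos (-1.57), Myc (-1.24) and Klf4 (-1.19).

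Of 24 inflammatory cytokine genes tested, 22 rose and none fell, with a median change of 4.68. Only 19 of the 24 were well above background on all 4 KO arrays. Neither untreated KO array had Csf2, Csf3, Il12a, Il23a or Il33 well above background. The median takes their changes as fitted, although their size is not measured. Genes named below that lie outside the naming rule, such as the next 4, were chosen with their values seen. Tnf was at 2.33 and 2.23 untreated and 6.31 and 6.11 with LPS, a change of 3.93. Il1b went from 2.16 and 2.02 to 8.98 and 9.08, a change of 6.94. Il10, an anti-inflammatory cytokine, went from -0.53 and -0.66 to 3.56 and 3.35 (4.05), and Il1rn, the interleukin 1 receptor antagonist, from -1.79 and -2.37 to 6.11 and 5.96 (8.12). Genes for inflammatory and for restraining cytokines were thus both among the rises, and the 2 not called were Lif (0.71) and Tgfb1 (0.03). Of 22 chemokine genes 20 rose, with a median of 5.60. After Cxcl3, the largest rises were those of Ccl12, a monocyte chemoattractant (8.50 ± 0.22), and Cxcl1, a neutrophil chemoattractant (8.04 ± 0.16), which went from -1.20 and -1.08 to 7.04 and 6.76. Cxcl14 was the only member that fell, from 5.0 and 4.93 to 2.79 and 2.70 (-2.22 ± 0.17).

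**Figure D2:**
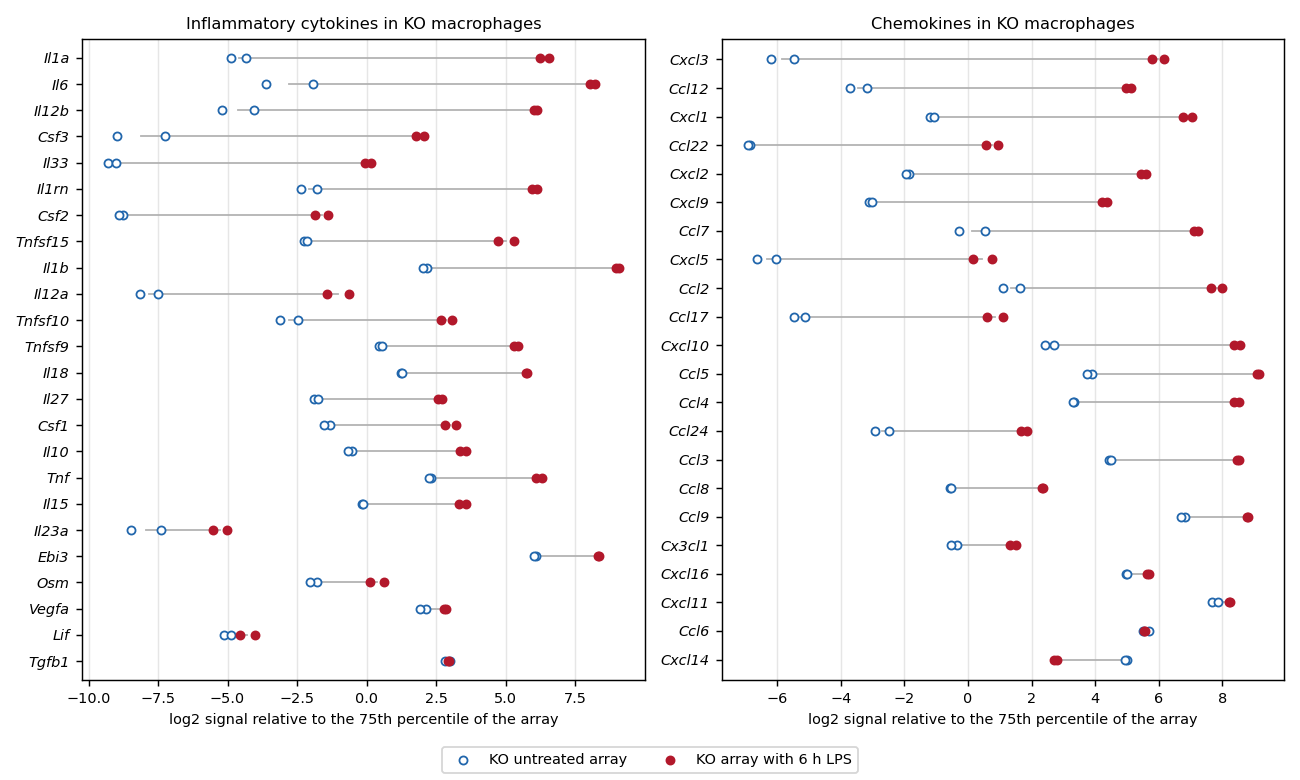
Level of the 24 cytokine genes (left) and 22 chemokine genes (right) on each KO array, as log2 signal relative to the array's 75th percentile; open circles are untreated arrays, filled circles arrays with 6 h LPS, grey lines join the group means, and genes are ordered by change. The LPS arrays lie to the right of the untreated arrays for all but Tgfb1 among the cytokines (Lif, like Tgfb1, was not called) and for all but Ccl6, which was not called, and Cxcl14, which fell, among the chemokines. Untreated values of Csf2, Csf3, Il12a, Il23a and Il33 are drawn as measured although they were not well above background. Ccl22 was well above background on 1 untreated array.

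The promoters of 2 genes with large rises show a kappaB form, GGG and TTCC with any 3 bases between them, close to the transcription start. Stretches of the RefSeq promoter windows (GRCm38.p6, a later build than the mm9 positions of the probes) are given with every match, on either strand, in capitals. The Cxcl3 window, on the plus strand at chr5:90785993-90786072, holds 3 matches, of which 2 lie on opposite strands of the same letters, and the Il6 stretch is at chr5:30013035-30013113 on the plus strand:
Cxcl3: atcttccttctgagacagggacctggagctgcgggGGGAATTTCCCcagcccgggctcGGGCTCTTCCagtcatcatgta
Il6: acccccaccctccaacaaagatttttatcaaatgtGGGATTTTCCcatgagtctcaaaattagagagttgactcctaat
Of the 22 chemokines, 15 matched the promoter table, and 5 of their 15 windows (33.3%) held the letters within 250 bases before the start, against 4.65% of all 32851 windows. The share was 13.6% for the cytokine list (3 of 22 windows) and 17.1% for the interferon-stimulated effectors (7 of 41). Among windows of genes that rose by at least 2 log2 units the share was 7.35%, among those of genes not called 4.83%. A match is a description of the sequence and not a site of binding.

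Interferon genes and their targets rose together. Ifnb1, interferon beta, was not well above background on either untreated KO array and stood at -2.43 and -2.55 with LPS, at least 24.2-fold higher. Of 14 genes of the interferon signalling chain 10 rose and none fell, led after Ifnb1 by the transcription factors Irf7 (3.84 ± 0.27) and Stat2 (2.79 ± 0.22). All 45 measured interferon-stimulated effectors rose, by 1.91 to 8.36 with a median of 4.02, and all 45 rose under each scaling except that the deposited values hold only 41 of them, all of which rose. Gbp5, a guanylate-binding protein that acts on intracellular pathogens, went from -1.62 and -2.26 to 6.55 and 6.29 (8.36 ± 0.27). Gbp2 went from 1.28 and 0.87 to 8.20 and 8.17 (7.11 ± 0.18), and Slfn4, a Schlafen family gene, from -6.67 and -5.11 to 1.18 and 1.13 (7.05 ± 0.66). The untreated levels of Gbp5 and Slfn4 spread more widely than those with LPS, but in neither did the groups come near each other. These families hold close paralogs, whose probes may read more than 1 member.

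Gbp5 and Gbp2 lie on chromosome 3, and both promoters hold an interferon response element form, GAAA repeated after any 2 bases, here on the opposite strand to that printed. The Gbp5 stretch is chr3:142496734-142496813 and the Gbp2 stretch chr3:142620569-142620648, both GRCm38.p6 and plus strand, with the match in capitals:
Gbp5: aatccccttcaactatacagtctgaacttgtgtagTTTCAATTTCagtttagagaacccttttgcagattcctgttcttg
Gbp2: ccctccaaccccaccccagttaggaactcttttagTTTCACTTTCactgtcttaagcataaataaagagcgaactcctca
Of the 45 effectors 35 matched the table, and 19 of their 41 windows (46.3%) held these letters. The share was 2.98% over all windows, 7.04% for genes that rose by at least 2 log2 units and 1.7% for genes that fell by as much.

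Most genes that restrain TLR signalling rose. Of 24 such genes 22 rose and 1 fell, with a median of 2.98. Socs1, which blocks JAK kinases, went from -1.38 and -1.53 to 5.42 and 5.46 (6.89 ± 0.16), its relative Cish rose by 6.48 ± 0.30, and Cd200, the ligand of an inhibitory myeloid receptor, by 6.18 ± 0.14. The lipid phosphatase Inpp5d (SHIP1) fell, from 6.31 and 6.29 to 4.22 and 4.36 (-2.01 ± 0.13). Among 20 genes of nitric oxide, prostaglandin, itaconate and acute-phase production 19 rose, with a median of 5.54. Nos2, inducible nitric oxide synthase, went from -0.72 and -0.65 to 8.19 and 8.22 (8.89 ± 0.20). Acod1, which makes itaconate, went from 2.51 and 2.31 to 9.08 and 9.05. Ptgs1, the constitutive cyclooxygenase, was the only one that fell (-3.29 ± 0.14), while Ptgs2 rose.

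Of 15 genes of MHC class I presentation and the immunoproteasome 14 rose (9 in the unscaled deposited values), with a median of 1.91. The largest rises were those of their activator Nlrc5 (3.99 ± 0.27) and the peptide transporter chains Tap1 (3.70 ± 0.24) and Tap2 (2.69 ± 0.15). The other probe of Nlrc5 changed by 2.01, less than Tap1 and Tap2. Of 10 MHC class II genes 2 rose and 2 fell, close to the shares of all genes (25.3% and 21.7%), and 5 rose with normexp. H2-Ab1 rose by 1.16 ± 0.15 and H2-Oa by 1.14 ± 0.18, and H2-DMb1 (-1.0 ± 0.12) and H2-DMa (-0.82 ± 0.12) fell. Among 20 costimulatory and adhesion molecules 16 rose and 3 fell. Cd40, a receptor for T cell help, went from 0.82 and 0.57 to 8.37 and 8.24 (7.62 ± 0.16), and Vcam1 rose by 6.66 ± 0.15. Cd80 fell by 2.79 ± 0.24 on its brighter probe, and its other probe had a change of opposite sign, so the direction of Cd80 depends on the probe. Icam2 fell by 1.51 ± 0.23. In the list of inflammasome, caspase and survival genes 21 of 24 rose, led by the necroptosis effector Mlkl (4.72 ± 0.16), the caspase 8 inhibitor Cflar (4.56 ± 0.20) and the peptidoglycan sensor Nod1 (4.02 ± 0.25), and the sensor Nlrp1b fell (-3.47 ± 0.13).

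Receptors and lineage factors of macrophages changed in both directions, as did genes as a whole, of which 25.3% rose and 21.7% fell. Those shares stand beside the counts of every list in this paragraph. Of 27 measured, 11 rose and 9 fell, and the list median of 0.08, near the 0.13 of all genes, changed sign with quantile normalization (-0.26), median centring (-0.14) and the deposited values (-0.43). The inhibitory IgG receptor Fcgr2b went from 2.27 and 2.33 to 7.89 and 7.73 (5.51 ± 0.12), the activating receptor Fcgr4 from 2.68 and 2.44 to 6.70 and 6.76 (4.17 ± 0.14), and Tfec, a relative of the factor Mitf, rose by 4.19 ± 0.18. Cebpa, a myeloid lineage factor, fell from 4.0 and 4.03 to 0.17 and 0.22 (-3.82 ± 0.14) and Pparg, a lipid-sensing nuclear receptor, from 3.68 and 3.60 to 0.08 and -0.02 (-3.60 ± 0.12). In both genes the LPS arrays lay over 3 log2 units below the untreated ones. Cx3cr1, the fractalkine receptor, was at 7.09 and 7.22 untreated and 4.42 on the LPS array with a value, the other being left out for an outlier flag (-2.73 ± 0.29). Among 20 chemoattractant receptors 10 rose and 4 fell, though 7 rose and 7 fell in the unscaled deposited values. Ccrl2 (5.43 ± 0.12) and the formyl peptide receptors Fpr2 (5.11 ± 0.14) and Fpr1 (4.07 ± 0.14) rose, while Cxcr4, which holds cells in bone marrow, fell from 3.54 and 3.54 to -1.02 and -1.03 (-4.56 ± 0.21) and the monocyte receptor Ccr2 fell by 2.93 ± 0.24. Of 15 genes linked to alternative activation 10 rose and 4 fell, led by the histone demethylase Kdm6b (5.44 ± 0.13), the chemokine Ccl24 (4.47 ± 0.24) and the receptor Il4ra (3.81 ± 0.12). Among 9 genes of the phagocyte NADPH oxidase and lysozyme 5 rose and 1 fell (2 and 1 with quantile normalization, median centring and in the deposited values), with Cybb, the catalytic subunit, rising by 1.95 ± 0.13 and Rac2 by 1.40 ± 0.13.

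**Figure D3:**
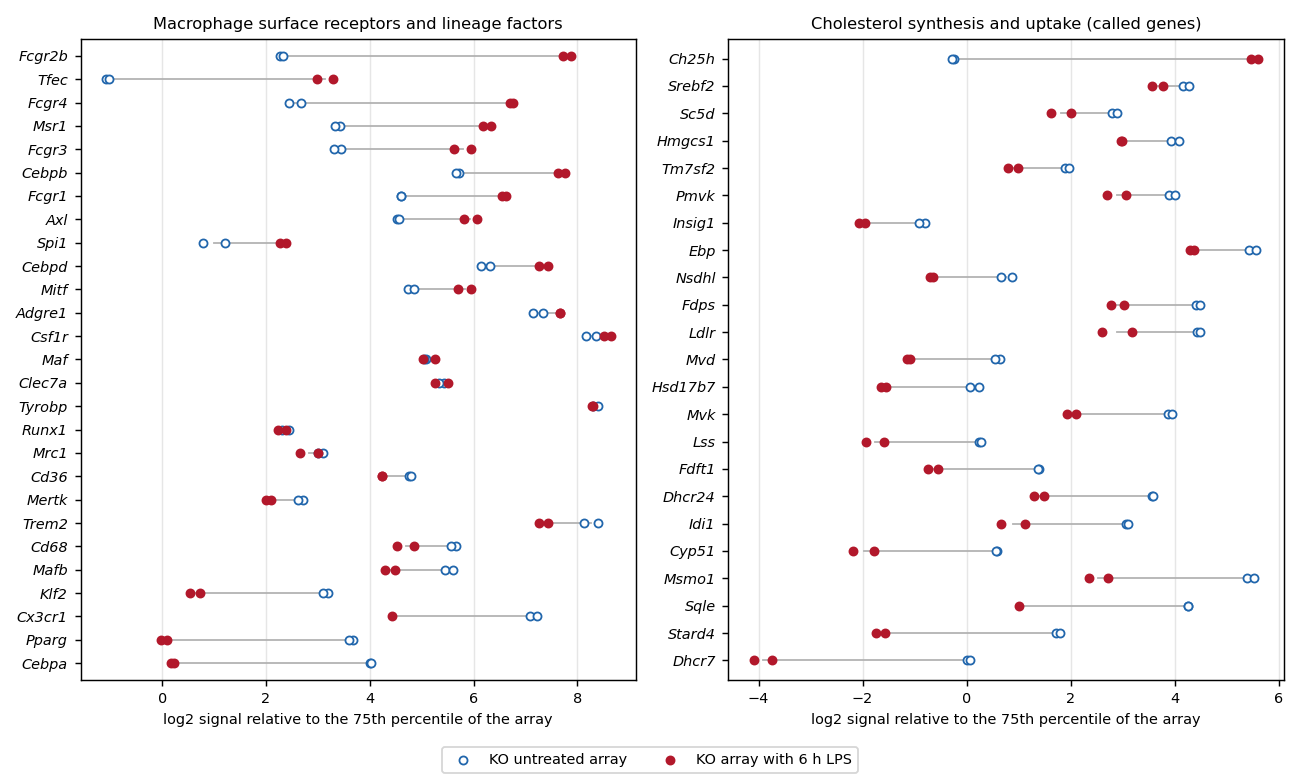
Level of 27 macrophage receptor and lineage genes (left) and the 23 called genes of the 25 of cholesterol synthesis and uptake (right) on each KO array, as log2 signal relative to the array's 75th percentile; open circles are untreated arrays, filled circles arrays with 6 h LPS, and grey lines join the group means. On the left changes run both ways; on the right all genes shown but Ch25h shift to lower levels.

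Of 31 genes of glycolysis and HIF-1 targets 23 rose and 3 fell, with a median of 0.91. With quantile normalization 16 rose, and in the unscaled deposited values 12 of 30. Adm, adrenomedullin, went from -4.40 and -4.44 to 1.12 and 0.88 (5.42 ± 0.16), Pfkfb3, which raises the activator of phosphofructokinase, from 2.94 and 2.99 to 7.64 and 7.61 (4.66 ± 0.13), and the transporter Slc2a6 from 5.42 and 5.40 to 8.69 and 8.64 (3.26 ± 0.12). Pfkfb4, another isoform of that enzyme, fell (-1.79 ± 0.18), as did Car9 (-1.46 ± 0.17) and Aldoc (-0.97 ± 0.18). Of 23 genes listed for the TCA cycle, cytosolic forms among them, 2 rose and 8 fell, beside 25.3% and 21.7% of all genes. With quantile normalization, median centring and in the deposited values 11 to 17 fell. The largest falls of the list were those of the isocitrate dehydrogenases Idh1 (-2.06 ± 0.13) and Idh2 (-2.04 ± 0.19) and the cytosolic aconitase Aco1 (-1.57 ± 0.15). Pcx, pyruvate carboxylase, rose from 0.31 and 0.04 to 1.12 and 0.98 (0.88 ± 0.19), a call that was lost without KO untreated replicate 2 (0.75, adjusted p = 0.0633). Of 29 respiratory chain subunits 1 rose, Cycs (cytochrome c, 1.79 ± 0.15, another of its probes having the opposite sign), and 3 fell, with a median of -0.01. That count of falls depends on the scaling: 12 fell with quantile normalization and 17 in the unscaled deposited values.

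Cholesterol synthesis and uptake fell together. Of 25 genes 22 fell and 1 rose, with a median of -1.57 where 21.7% of all genes fell. Dhcr7, which catalyses the last step to cholesterol, went from 0.01 and 0.06 to -4.10 and -3.74 (-3.95 ± 0.16), and the sterol carrier Stard4 from 1.72 and 1.80 to -1.58 and -1.73 (-3.42 ± 0.33). Squalene epoxidase, Sqle, was at 4.26 and 4.25 untreated and 1.01 on the LPS array with a value (-3.25 ± 0.23). The rise was that of Ch25h, from -0.24 and -0.27 to 5.60 and 5.47 (5.79 ± 0.13), an enzyme that makes 25-hydroxycholesterol, an oxysterol that restrains sterol synthesis. Among 23 genes of cholesterol efflux and lipid handling 6 rose, near the share of all genes, and 10 fell (2 and 15 with quantile normalization). Of all genes 25.3% rose and 21.7% fell, which also stands beside the lysosomal count below. The lipid droplet gene Hilpda rose by 3.38 ± 0.13 and the efflux pump Abca1 by 1.49 ± 0.13. Fatty acid synthase, Fasn, fell by 2.50 ± 0.40 and the cholesterol esterifying enzyme Soat1 by 2.25 ± 0.20. Of 30 lysosomal genes 4 rose and 14 fell (1 and 19 with quantile normalization, 1 and 22 in the unscaled deposited values), among them Tfeb, a factor that drives lysosomal genes (-2.16 ± 0.13), and cathepsin C, Ctsc, rose (1.92 ± 0.12).

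The cell cycle genes fell with exceptions. Of 34 genes of DNA replication and the G1/S transition 26 fell and 2 rose, with a median of -1.36. E2f2 went from 2.67 and 2.82 to -2.89 and -3.02 (-5.69 ± 0.14), Dut, which removes dUTP, from 0.97 and 0.98 to -2.58 and -2.74 (-3.63 ± 0.13), and the helicase subunit Mcm2 from 1.31 and 1.38 to -2.17 and -2.23 (-3.55 ± 0.13). Tyms, thymidylate synthase, rose instead, from -1.98 on the untreated array with a value to 1.95 and 1.75 (3.83 ± 0.27), and so did Ccne1, cyclin E1 (0.88 ± 0.14). Of 32 measured G2/M and mitosis genes 24 fell and 5 rose, with a median of -1.64, led by the centromeric histone Cenpa (-3.44 ± 0.17) and the kinesins Kif20b (-3.35 ± 0.24) and Kif23 (-2.67 ± 0.17). The rises were those of the spindle factor Tpx2, from -2.04 and -2.31 to 1.31 and 1.13 (3.39 ± 0.16), the kinesin Kif4, from -5.66 and -5.97 to -2.71 and -2.88 (3.02 ± 0.22), the proliferation marker Mki67, from 0.41 and 0.07 to 3.16 and 2.70 (2.69 ± 0.21), and Mad2l1 (1.67) and Ube2c (0.70). For Mki67 both of its probes were called higher, whereas the other probe of Tpx2 changed by only 0.47. Fewer dividing cells and less of these RNAs per cell cannot be told apart here. Among 25 D cyclins, CDK inhibitors and p53 targets 11 rose and 9 fell, beside 25.3% and 21.7% of all genes. Ccnd2 went from -1.13 and -1.56 to 5.44 and 5.43 (6.78 ± 0.21) and Ccnd1 from 3.81 and 3.74 to 0.35 and 0.64 (-3.28 ± 0.15). Gadd45b rose by 4.51 ± 0.13 and the CDK inhibitor Cdkn1a by 2.97 ± 0.23, while Ypel3 fell by 4.96 ± 0.17. The other probe of Cdkn1a changed by only 0.75.

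Promoters of the cell cycle lists hold 2 forms known from genes of these phases. The E2F form TTTNNCGC is shown for Pola1, a DNA polymerase subunit that fell by 3.05 (chrX:93632251-93632328, minus strand), and Cdc6, a licensing factor that fell by 2.96 (chr11:98907978-98908055, plus strand). The cell cycle homology region form TTTGAA is shown for Mki67, which rose (chr7:135716455-135716530, minus strand), and the kinesin Kif11, which fell by 2.51 (chr19:37376328-37376381, plus strand). All are from the GRCm38.p6 windows, with matches on either strand in capitals:
Pola1: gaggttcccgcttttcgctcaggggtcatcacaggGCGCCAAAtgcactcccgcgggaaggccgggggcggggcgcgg
Cdc6: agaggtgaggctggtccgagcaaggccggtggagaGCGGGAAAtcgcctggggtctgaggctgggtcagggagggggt
Mki67: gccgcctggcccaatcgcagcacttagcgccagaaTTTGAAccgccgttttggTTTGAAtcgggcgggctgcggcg
Kif11: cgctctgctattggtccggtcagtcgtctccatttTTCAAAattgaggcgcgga
The Mki67 stretch holds 2 matches although the gene moved the other way from Kif11. Of 34 replication genes 28 matched, and 9 of their 34 windows (26.5%) held the E2F form, against 4.28% of all windows. Of the mitosis genes 29 matched, and 13 of 31 windows (41.9%) held TTTGAA, against 16% of all windows. That form was also in 31.7% of the windows of the interferon-stimulated effectors and 26.7% of those of the chemokines, lists that rose, and in 11.4% of the windows of all genes that fell.

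Among 33 NRF2 targets 14 rose and 5 fell, with a median of 0.38, but 9 rose and 11 fell with quantile normalization and 5 rose and 11 fell in the unscaled deposited values. The direction of the list as a whole thus depends on the scaling. Its largest members do not: Slc7a11, the cystine importer, went from -2.60 and -2.89 to 3.98 and 3.61 (6.54 ± 0.18), and the glutathione S-transferases Gsta1 and Gsta2 rose, Gsta1 from -6.63 and -5.59 to -1.97 and -2.59 (3.83 ± 0.41) and Gsta2 at least 11.6-fold from below background. These are close paralogs whose probes may read both. The carbonyl reductases Cbr1 (-1.56 ± 0.16) and Cbr3 (-1.34 ± 0.19) fell. Nqo1, often used as an NRF2 readout, was at -0.17 and -0.15 untreated and 0.09 and 0.09 with LPS and was not called. Of 18 regulators around Cullin 3, KEAP1 and NRF2, 9 rose and 1 fell (2 and 5 in the unscaled deposited values). Keap1 rose from 3.28 and 3.12 to 4.42 and 4.65 (1.34 ± 0.16), the NEDD8-conjugating enzyme Ube2m by 1.10 ± 0.19 and the small MAF protein Mafg by 1.01 ± 0.19, and Bach1, a repressor of NRF2 targets, fell from 4.27 and 4.38 to 3.21 and 2.80 (-1.32 ± 0.22). Of 22 genes of the unfolded protein and ATF4 response 7 rose and 4 fell, near the shares of all genes (25.3% and 21.7%), and the balance turned with scaling, to 5 and 6 with median centring, 6 and 7 with quantile normalization, and 4 and 13 in the unscaled deposited values (6 and 10 with the percentile removed). Ddit4, an inhibitor of mTORC1, rose by 3.59 ± 0.30, the serine synthesis gene Psat1 by 3.10 ± 0.16 and its mitochondrial partner Mthfd2 by 1.69 ± 0.13, and Shmt2 fell by 1.32 ± 0.13.

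**Figure D4:**
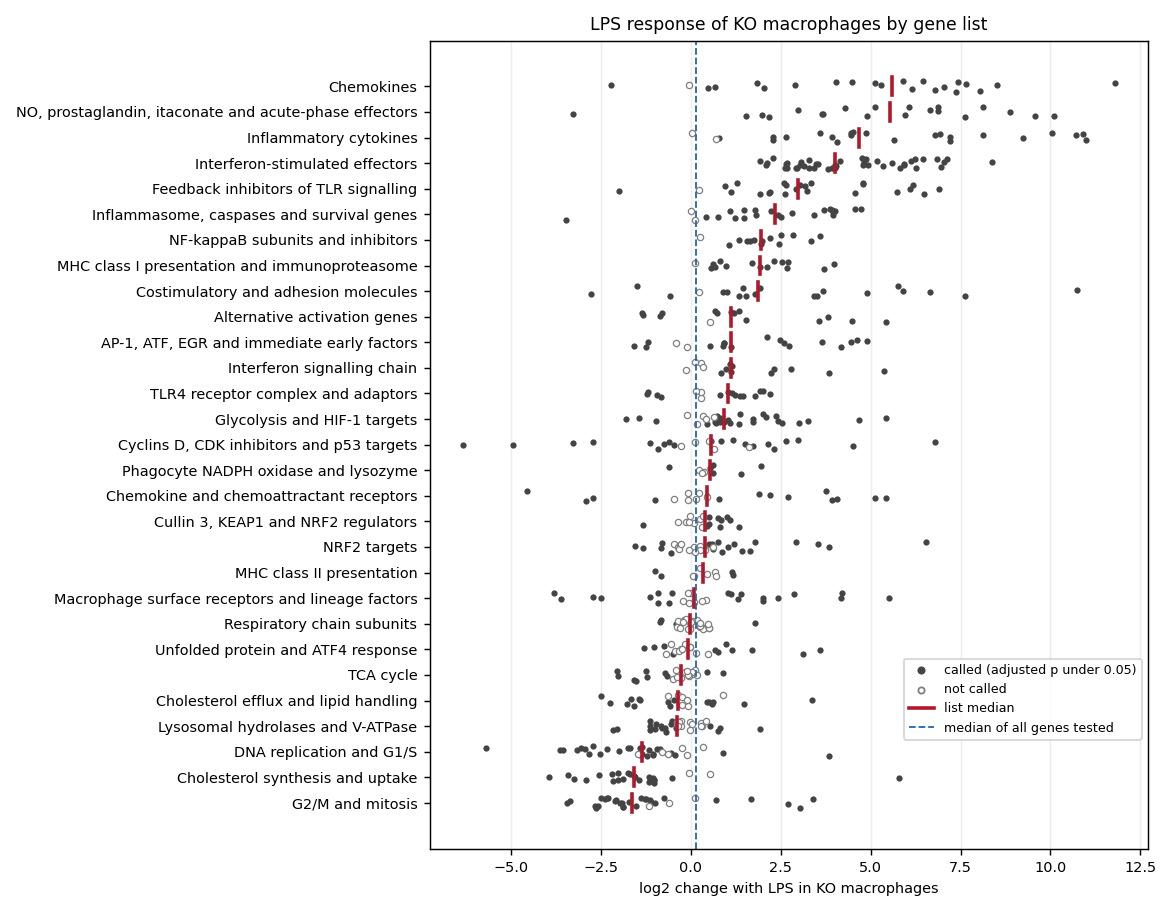
Log2 change with LPS in KO macrophages of each measured member of 29 gene lists (rows, ordered by median); filled points were called and open points were not, red bars are list medians and the dashed line is the median of all genes (0.13). The chemokine median (5.60) and the interferon effector median (4.02) lie far to the right, and the medians of the cholesterol synthesis (-1.57) and G2/M (-1.64) lists to the left.

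The KO response followed the WT response in direction. Of the 7075 genes that rose in KO cells, 6173 also rose in WT cells, 872 were not called there and 30 fell, and of the 6069 that fell, 4895 also fell in WT cells, 1092 were not called and 82 rose. Taken over genes (which do not count as independent replicates) the 2 responses had a correlation of 0.899 and a slope of KO on WT of 0.785. In WT cells 16090 genes were called (57.5%). The lists with large rises had lower medians in KO than in WT cells: 4.02 against 5.37 for interferon effectors, 4.68 against 6.23 for cytokines, 5.60 against 6.14 for chemokines and 1.96 against 2.93 for NF-kappaB genes. Of the 1881 genes that rose by at least 2 log2 units in KO cells 1351 had a larger rise in WT cells, and 1198 and 1255 with quantile normalization and median centring. Of the 1332 that fell by at least 2 units 596 had a larger fall in WT cells, and 687 and 707 in those settings. Over all genes the KO change was below the WT change in 63.3%, and in 50.2% and 51.2% in those settings. Both counts are read against that shift. The sterol list was close in both genotypes, at -1.57 and -1.65. The difference between the responses was called in 1270 genes (4.54%), the KO change being more positive in 347 (1.24%) and more negative in 923 (3.3%). The balance turned with scaling: 563 were more positive and 687 more negative with quantile normalization, 391 and 463 with median centring, 482 and 396 in the unscaled deposited values, and 1320 and 483 in those with the percentile removed. The count also depended on which array was left out. It was 4 without WT untreated replicate 1, 8 without WT untreated replicate 2, 5 without KO untreated replicate 2, 31 and 99 without KO LPS replicates 2 and 1, 72 without KO untreated replicate 1, 317 without WT LPS replicate 2 and 1918 without WT LPS replicate 1. Each difference named below lost its call in the fits without WT untreated replicate 1 or 2 and without KO untreated replicate 2, where the adjusted p over the named differences ran from 0.0501 to 0.175.

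Among genes called in KO cells and well above background on all 8 arrays, the KO change was more positive by the most in Serinc2, Slc1a2, Susd2 and Lrfn4. Serinc2 went from -5.27 and -5.10 to -1.87 and -2.23 in KO cells, a rise of 3.14 where WT cells changed by -0.54, a difference of 3.68 (adjusted p = 0.0102). Slc1a2, a glutamate transporter, rose by 6.67 in KO and 3.51 in WT cells (difference 3.16, another of its probes having the opposite sign), and Susd2 rose by 2.99 where WT cells changed by -0.10 (3.09). Lrfn4 fell less in KO cells, by 2.36 against 5.12 in WT cells (2.77). Wscd2 (2.57), Tmem273 (2.36), Ccdc144b (2.36) and Kctd1 (2.30) followed. Pcx had a difference of 2.26, rising by 0.88 in KO cells where it changed by -1.38 in WT cells. The differences of Gsta1 and Gsta2 were called too, but no WT array had either well above background, nor had an untreated KO array Gsta2, so that their size is not measured. Among genes with a more negative change, Cd209f, a C-type lectin gene, went from -0.73 and -0.55 to -3.56 and -4.93 in KO cells, a fall of 3.60 where WT cells changed by 1.33 (difference -4.93, adjusted p = 0.0220). Fgl2, which encodes a prothrombinase, rose by 1.05 in KO and 4.79 in WT cells (-3.73), and Serpina3i and Serpina3g, paralogous protease inhibitors, by 2.76 and 7.09 against 6.28 and 10.42 (-3.52 and -3.34). Bank1 fell by 2.79 in KO cells where it changed by 0.56 in WT cells (-3.36), and Jaml, Ell3 and Ifit1bl1 rose less in KO than in WT cells (-3.29, -3.12 and -3.07).

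Within the lists, differences of the more negative kind were called for 18 of 45 interferon effectors (9 with quantile normalization, 6 with median centring, 3 with spike-in scaling and 32 with normexp) and 11 of 24 cytokines (8, 7, 3 and 15 in these settings), beside 3.3% of all genes, and none of either list was called more positive. The difference was below 0 in 43 of the 45 effectors and 21 of the 24 cytokines, beside 63.3% of all genes. With quantile normalization these were 42, 21 and 50.2%. Genes that rose are the closer comparison, since nearly all members of both lists rose. Of the 7075 genes that rose in KO cells, 561 had a more negative difference called. Of the 1881 that rose by at least 2 log2 units, 1351 had a difference below 0 (1198 with quantile normalization). Ccl12 rose by 8.50 in KO and 11.25 in WT cells (-2.75), Cd40 by 7.62 and 10.32 (-2.71), Ch25h by 5.79 and 8.28 (-2.49), Nod1 by 4.02 and 6.27 (-2.25) and Fpr1 by 4.07 and 5.83 (-1.75). Ccnd1 fell by 3.28 in KO and by 1.23 in WT cells (-2.05), and Rasgrp3 by 9.08 and 6.75 (-2.33). Bach1 fell in KO cells where it changed by 0.45 in WT cells (-1.77), and Cebpa fell less in KO than in WT cells, by 3.82 against 5.12 (1.30). Of 33 NRF2 targets 4 had a more positive change called (2 with spike-in scaling and in the unscaled deposited values) and none a more negative one. Of all genes 1.24% had a more positive change called. Gsta1 and Gsta2 are among the 4, and no WT array had either well above background. They passed the filter through KO arrays only and their probes may read both, so the count is not like for like with that share.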

How the data were processed

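RNA of 8 samples was hybridised to 1-colour (Cy3) Agilent arrays on 1 slide. The submitters' processing notes name Agilent Feature Extraction 10.7.3.1, and per the file headers the deposited spot intensity is corrected for background and not scaled between arrays. The deposited value table holds log2 values of 26670 probes without scaling between arrays, as a match to the scanner values showed (median differences of -0.0045 to 0.0155, correlation at least 0.996); its column medians were 10.94, 11.10, 10.67, 10.73, 11.11, 11.03, 10.85 and 10.71 (WT untreated, WT LPS, KO untreated, KO LPS, replicates 1 and 2). How its probes were chosen stays unknown.

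Spots that were controls or carried an outlier flag were dropped, and log2 processed signals were averaged per probe and reduced by the array's 75th percentile. No spot was saturated. A probe was kept where some group had it well above background in both replicates (39870 of 55681), and a gene took its probe with the highest mean, giving 27973 genes, 27954 of them with a KO change. A limma (3.58.1, R 4.3.3) fit of 4 group means used all 8 arrays (4 residual and 2.41 prior degrees of freedom), with Benjamini-Hochberg adjustment over all genes. On simulated data 22 of 100 genes changed by 1 log2 unit and 60 of 100 changed by 2 were called, with 4 false calls among 27297. The simulation changed only those genes, whereas 47% of genes were called in the KO response. Its rates therefore do not carry over to these data.

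Members and gene lists were chosen with earlier results of these data known. Genes named by rule were Cul3, the 12 largest rises and falls, up to 3 rises and 3 falls of each list and the 8 largest differences each way, 204 in all; the text drops some for length, and a few genes are not reported here. Of these, 42 had more than 1 probe, none with another probe called the other way. A size given is that of the probe with the highest mean, and another probe could change by less or more. Lists were not tested as sets. Replicate numbers were not used to pair the samples in the main fit. Deviations of same-numbered KO samples correlated at 0.0274, and those of the other pairs of groups at -0.187 to 0.0145. Such values cannot show whether same-numbered samples share a mouse or culture, which the labels do not say. Alternatives were other normalizations and scalings, filters, moderation, a replicate block, stricter thresholds and leaving out each array.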

Additional observations from a re-analysis of the deposited data

Results flagged for a closer look

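The LPS response differed between KO and WT cells, by the limma test of the difference of the 2 responses, in 46 of the genes named by rule. This picks them out as a difference between groups and, since each call was lost in at least 3 of the fits that left out 1 array, they are values to check and not settled differences. Every value is the KO change minus the WT change in log2 units.

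The KO change was more positive in 14 genes: Serinc2 (3.68), Slc1a2 (3.16), Susd2 (3.09), Gsta1 (2.96), Gsta2 (2.86), Lrfn4 (2.77), Wscd2 (2.57), Tmem273 (2.36), Ccdc144b (2.36), Kctd1 (2.30), Pcx (2.26), Cebpa (1.30), Tfeb (1.25) and Inpp5d (1.03). No WT array had Gsta1 or Gsta2 well above background, and no untreated KO array had Gsta2, so those sizes are fitted values and not measured ones. The last 3 of these, with Lrfn4 and Tmem273, fell in both genotypes and fell less in KO cells.

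The KO change was more negative in the others. Among cytokine, chemokine and signalling genes these were Ccl12 (-2.75), Cd40 (-2.71), Nod1 (-2.25), Il1a (-1.97), Il4ra (-1.54), Socs1 (-1.18), Cd180 (-1.15) and Ier3 (-1.07). Among receptors they were Fpr1 (-1.75), Fpr2 (-1.75), Fcgr4 (-1.64), Ccr7 (-1.58), Mertk (-1.53) and Ccrl2 (-1.08). The genes with the largest negative differences were Cd209f (-4.93), Fgl2 (-3.73), Serpina3i (-3.52), Bank1 (-3.36), Serpina3g (-3.34), Jaml (-3.29), Ell3 (-3.12) and Ifit1bl1 (-3.07). The remaining ones were Ch25h (-2.49), Rasgrp3 (-2.33), Batf3 (-2.30), Ccnd1 (-2.05), Smpd3 (-2.01), Tpx2 (-1.81), Bach1 (-1.77), Shisa3 (-1.36, with no untreated KO array well above background), E2f2 (-1.02) and H2-DMb1 (-1.02). Bach1, Batf3, Bank1, Cd209f, Cd180, Mertk and H2-DMb1 fell in KO cells and had a change above 0 in WT cells.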

How the results depend on the processing

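The number of genes called for the KO response stayed within 1.5 times of 13144 under every alternative run except a minimum change of 1 log2 unit (8048, with 4220 higher and 3828 lower), and was 9508 to 14084 when 1 array was left out (5093 to 7569 higher, 4415 to 6515 lower). Genes called higher numbered 12299 with normexp, 2109 and 3170 in the deposited values without and with the 75th percentile removed, and 4692 at an adjusted p under 0.01. For the WT response, leaving out an array gave 12494 to 15682 called genes (7273 to 9678 higher, 5073 to 6004 lower); other values were 10658 and 10409 in the deposited values without and with the percentile removed (2371 and 2835 higher), 6324 higher with median centring, 16321 higher with normexp and 10149 at a change of at least 1 log2 unit (6166 higher, 3983 lower). The difference between the responses moved most: 4 to 1918 called when 1 array was left out (0 to 660 more positive, 4 to 1258 more negative), 134 with the replicate number as a block (24 and 110), 184 without a filter (34 and 150), 421 with spike-in scaling, an alternative chosen after seeing the data (168 and 253), 2197 with trended moderation (642 and 1555), 2445 with normexp (629 and 1816) and 30 at an adjusted p under 0.01 (4 and 26). It was 563 more positive with quantile normalization, 463 more negative with median centring, 526 more positive with the filter on all 8 arrays, 396 more negative in the deposited values, and 1320 and 483 in those with the percentile removed. With the same block the KO response had 12112 calls, and whether same-numbered samples are paired is not known.

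Of the 204 named genes, 197 kept their call of the KO response under the replicate block and 184 to 188 when a KO array was left out. Signs reversed, with no value called, for Cul3 (-0.11), Dlst (-0.11) and Lyz1 (-0.35) in the deposited values, Lyz1 (-0.069) with the percentile removed, Cdh1 (0.11), Klf1 (0.28) and Klrd1 (0.29) with normexp, Itgam (0.032) with the mean of its probes, and the difference of Shisa3 (0.29) with normexp. The cause was not tested. Signal over background limits genes that were dim in 1 group: 340 of the genes that rose and 396 of those that fell had no array of the dimmer group well above background, so their size is a bound.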
